A study of Mus musculus with 2 samples.

Results

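Genes of oxygen carriage and iron handling, 8 in all, were followed through a single-cell RNA data set of the mouse retina, and each was found by symbol among the 32285 genes of the deposited matrices. They are the adult α-globin genes Hba-a1 and Hba-a2, the adult β-globin genes Hbb-bs and Hbb-bt, the haem enzyme gene Alas2, the erythropoietin receptor gene Epor, the transferrin receptor gene Tfrc and the transferrin gene Trf. They were chosen because their levels in these same libraries had stood out earlier, so their levels are given as descriptions and no test was made of them. Retinas came from mice at postnatal day 6, an age at which the vascular plexus of the mouse retina is still growing, and were dissociated and enriched with beads against CD31, a surface protein of endothelial cells. The control library came from Alk1 f/f mice, and the Alk1 ECKO library from Alk1 f/f mice that also carried Cdh5 CreERT2, a tamoxifen-inducible Cre recombinase driven by the endothelial Cdh5 promoter. Both groups thus carried the floxed Alk1 allele, and neither the number of animals pooled per library nor the deleted exons are given in the sources used here.

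The comparison had 1 library per genotype, without replicates. Every difference below is therefore a difference between 2 libraries, intervals are 95% intervals that cover counting error only, and genotype cannot be told apart from animal, dissociation or run. The control library held 8739 barcodes and 54800465 unique molecular identifiers (UMIs, each a counted RNA molecule), the Alk1 ECKO library 5308 barcodes and 62728605 UMIs, with medians of 3707 and 2564.5 UMIs per barcode. The cells used after filtering and removal of doublets numbered 7409 and 4093, and 20 barcode sequences occurred in both libraries. The endothelial class held 304 control and 1131 Alk1 ECKO cells, with medians of 19770 and 18862 UMIs per cell. Cdh5, which encodes VE-cadherin, stood at 769 and 637 counts per 1000000 UMIs of the class (CPM) there, against 1.76 and 2.92 CPM in rods. Acvrl1, the gene that encodes ALK1, was at 115 and 120 CPM in endothelial cells of the control and Alk1 ECKO libraries. Whether the counted 3′ tags lie outside the deleted part is not known, so the deletion was not verified from these levels. No cluster was named erythroid, and no member entered the genes used for clustering.

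Haemoglobin of the adult mouse is built from α and β chains that red cell precursors make in bulk. Maturing red cells lose their nucleus but keep globin mRNA for a time, so blood brings globin mRNA into a tissue suspension, and lysed red cells release it as free RNA that any droplet can take up. ALAS2 catalyses the first step of haem synthesis in erythroid cells. Erythropoietin receptor is best known on erythroid progenitors and is also found on endothelial cells. Transferrin, the product of Trf, carries iron in plasma, and transferrin receptor, the product of Tfrc, takes it into cells and across the endothelium of brain and retina. In mouse and human small arteries α-globin protein has also been described in endothelial cells, beside the nitric oxide synthase NOS3.

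The 2 genes of each globin pair are nearly the same sequence, which bounds what a count for one of them can mean. By GENCODE vM21 on the GRCm38 (mm10) build, Hba-a1 (ENSMUSG00000069919) lies at chr11:32283511-32284465 on the plus strand and Hba-a2 (ENSMUSG00000069917) at chr11:32296489-32297298 on the same strand, 12023 bases apart. Hbb-bs (ENSMUSG00000052305) lies at chr7:103826534-103828096 and Hbb-bt (ENSMUSG00000073940) at chr7:103812524-103813996, both on the minus strand, 12537 bases apart. Their coding sequences differ at 1 of 426 bases in the α pair and at 1 of 441 bases in the β pair, an identity of 99.8% in both. After the coding part the annotated transcripts part more: 77 against 93 bases with 16 edits in the α pair, and 134 against 135 bases with 40 edits in the β pair. Where the counted reads fell along these transcripts was not examined. The stretches of 41 coding bases around the differing base are shown because they are what a read would have to cover to tell the copies apart inside the coding part. Capitals mark the differing base, at coding position 381 of the α genes and 417 of the β genes, counted from 1 at the start codon. The stretches lie at chr11:32284323-32284363 (plus), chr11:32297140-32297180 (plus), chr7:103826672-103826712 (minus) and chr7:103812663-103812703 (minus), in that order.
Hba-a1: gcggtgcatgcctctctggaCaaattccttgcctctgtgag
Hba-a2: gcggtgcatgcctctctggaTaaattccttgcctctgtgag
Hbb-bs: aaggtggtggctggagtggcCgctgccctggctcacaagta
Hbb-bt: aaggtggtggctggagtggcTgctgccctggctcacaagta
No source used here says how reads that matched both copies were counted. The split within each pair is therefore uncertain, and the 4 genes are mostly described by their sum, called the adult globins below.

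The other 4 members have no such copy among the set. Alas2 (ENSMUSG00000025270) lies at chrX:150547375-150570638 on the plus strand and overlaps Apex2 and Mir3620 on the opposite strand. Apex2 was at 10.4 and 7.65 CPM in control and Alk1 ECKO endothelial cells, and whether counting used strand is not given, so single Alas2 UMIs are uncertain. Epor (ENSMUSG00000006235) lies at chr9:21958897-21963506 on the minus strand and Tfrc (ENSMUSG00000022797) at chr16:32608920-32632794 on the plus strand. Trf (ENSMUSG00000032554) lies at chr9:103204001-103230444 on the minus strand and overlaps Gm20425 on the same strand. Promoter sequence from RefSeq (GRCm38.p6) was at hand for 7 of the 8 members. Stretches of 150 bases before the annotated starts are shown for 1 gene of each globin pair and for Alas2, Epor and Tfrc. The reason was that globins and Alas2 shared barcodes in part, while Epor and Tfrc differed between the libraries in opposite directions. Barcodes with 100 or more globin UMIs held 46 control and 107 Alk1 ECKO Alas2 UMIs, and barcodes without a globin UMI held 23 and 1. Capitals mark motifs found on either strand, namely GATAA for the GATA factors, with AGATAA as a longer form of it, CACCC for Krüppel-like factors and GGCGCC for the factors SMAD1 and SMAD5. The stretches lie at chr11:32296339-32296488 (plus), chr7:103813997-103814146 (minus), chrX:150547225-150547374 (plus), chr9:21963577-21963726 (minus) and chr16:32608746-32608895 (plus).
Hba-a2: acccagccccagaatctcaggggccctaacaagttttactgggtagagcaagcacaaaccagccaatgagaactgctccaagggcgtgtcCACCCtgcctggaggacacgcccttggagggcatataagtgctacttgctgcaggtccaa
Hbb-bt: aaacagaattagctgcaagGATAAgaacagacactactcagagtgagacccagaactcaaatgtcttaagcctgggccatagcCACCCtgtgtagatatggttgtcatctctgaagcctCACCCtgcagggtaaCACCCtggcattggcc
Alas2: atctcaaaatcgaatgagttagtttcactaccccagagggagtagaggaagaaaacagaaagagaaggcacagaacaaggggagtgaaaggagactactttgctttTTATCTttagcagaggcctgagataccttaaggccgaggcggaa
Epor: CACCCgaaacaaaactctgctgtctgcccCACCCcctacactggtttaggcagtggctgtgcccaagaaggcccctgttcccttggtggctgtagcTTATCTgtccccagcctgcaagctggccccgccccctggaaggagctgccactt
Tfrc: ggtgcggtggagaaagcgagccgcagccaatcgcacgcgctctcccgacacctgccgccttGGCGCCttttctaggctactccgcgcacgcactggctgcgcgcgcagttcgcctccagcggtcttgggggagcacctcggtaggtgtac
In the full 300-base windows GATAA (reverse complement TTATC), a motif added after the others, occurred 1 time in each of the 4 globin genes, Alas2 and Epor and not in Tfrc. It occurred in 25.4% of all 32851 windows of the table. AGATAA, which contains it, occurred 1 time each in Hbb-bs, Alas2 and Epor and in 11.2% of all windows. CACCC was present in all 7 members and in 57.5% of all windows. ACGTG, the core of the hypoxia response element, occurred in Tfrc alone among the 7 and in 19.6% of all windows, and GGCGCC in Tfrc alone and in 11.9%. A match is a description of these letters and not a bound site.

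Epor, the receptor gene, was higher in Alk1 ECKO than in control endothelial cells. The control endothelial cells held 57 Epor UMIs, 5.45 CPM (4.13 to 7.07), and the Alk1 ECKO endothelial cells held 786, 21 CPM (19.6 to 22.6). The intervals did not overlap, and the log2 ratio was 1.95 (1.56 to 2.36), a 3.86-fold difference. After thinning to 5000 UMIs per cell the log2 ratio was 1.26, on 13 and 97 UMIs. At least 1 Epor UMI was seen in 14.5% of control and 36.1% of Alk1 ECKO endothelial cells, with at most 3 and 10 UMIs in 1 cell. After each cell had been thinned to 2000 UMIs, which left out 2 and 88 shallower cells, these shares were 1.66% (0.54 to 3.82) and 3.93% (2.84 to 5.3). Rods, which served as the type that should lack the gene, had a UMI in 0% and 0.429% of thinned cells, at median depths of 2709 and 2197 UMIs before thinning. The thinned endothelial intervals overlapped, and no interval was computed for a ratio of shares. A difference in the share of cells at 2000 UMIs per cell was therefore not settled, and the Epor difference rests on the summed counts.

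Across endothelial sub-clusters Epor was higher in Alk1 ECKO in every one of the 8 that held cells of both libraries, though most rested on few control UMIs. Sub-cluster 0, led by the histone gene Hist1h1b and other genes of DNA synthesis, went from 19 UMIs and 4.98 CPM in 56 control cells to 173 UMIs and 13.6 CPM in 199 Alk1 ECKO cells, a log2 ratio of 1.45 (0.77 to 2.22). Sub-cluster 6, led by the mitotic genes Ube2c and Cenpf, had 2 UMIs against 65, at 1.99 and 23.3 CPM, a log2 ratio of 3.55 (1.64 to 6.63). Sub-cluster 4, led by Slc38a5 and Slco1c1, 2 transporter genes of the endothelium at the blood-retina and blood-brain barriers, had 7.38 CPM in 146 control cells and 17.2 CPM in 34 Alk1 ECKO cells, a log2 ratio of 1.22 (0.08 to 2.25). The highest Alk1 ECKO levels were in sub-cluster 2, led by Kcne3, Angpt2 and Esm1, at 27.8 CPM (24.4 to 31.5), and in sub-cluster 1, led by Apod and Slc38a5, at 26.6 CPM (23.3 to 30.3). Their intervals overlapped each other and those of sub-clusters 6 and 3 (23.3 and 20.7 CPM), while sub-cluster 0 lay below all of these 4 except sub-cluster 3. Sub-cluster 5, which held 180 Alk1 ECKO cells and no control cell and was led by Mgp and the class II antigen chaperone gene Cd74, was at 12.8 CPM (5.86 to 24.3). Sub-clusters 1, 2 and 3 held only 4, 9 and 7 control cells, with 1 or 2 Epor UMIs each, and sub-cluster 7, led by Cxcl12 and the connexin gene Gja4, held none in 19 control cells, which allows up to 11.7 CPM.

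**Figure D1:**
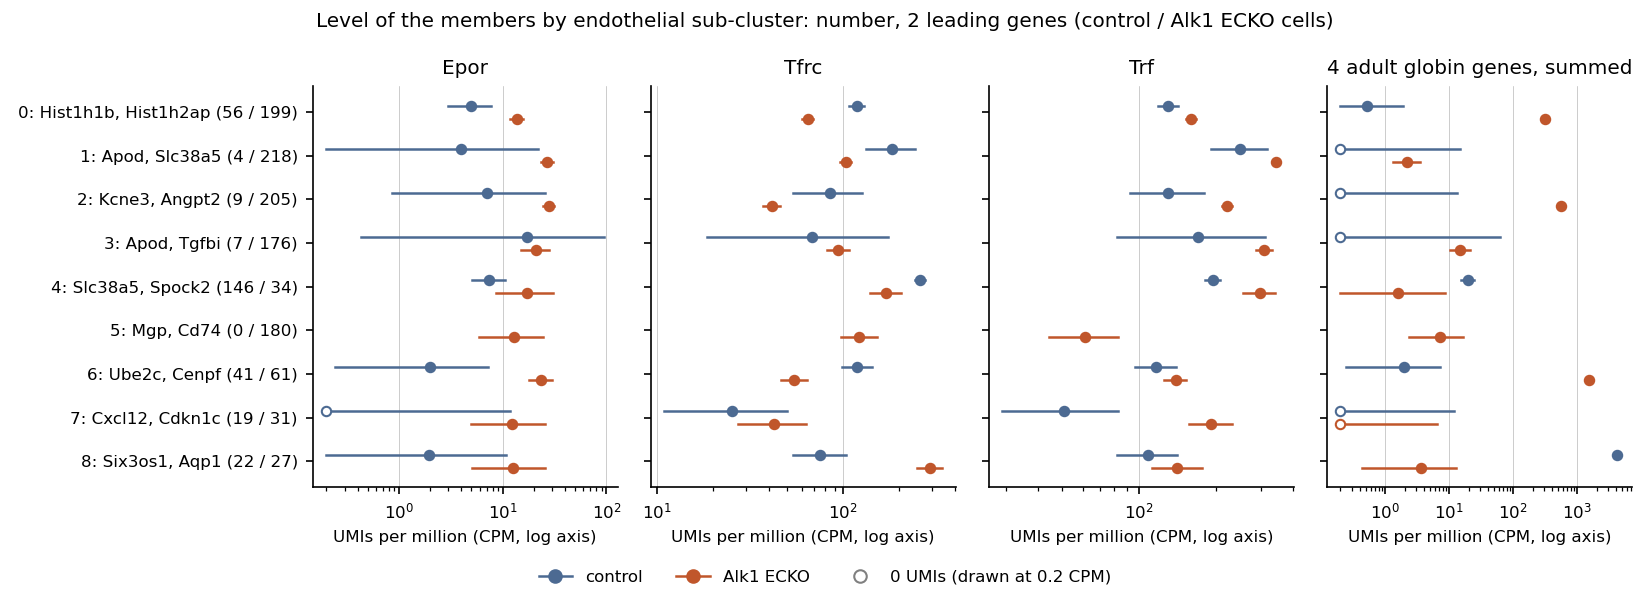
Level of the members in each endothelial sub-cluster on a log axis of CPM, control and Alk1 ECKO library, with points for the sums over cells and bars for 95% Poisson intervals. Epor lies to the right in Alk1 ECKO in all 8 sub-clusters with cells of both libraries, Tfrc to the left in 5 of 8, and the globins scatter from 0 to 4162 CPM.

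Unnamed and set-aside clusters also held Epor and are described below. Among the named classes other than the endothelium, Epor was counted mostly in microglia or macrophages. These stood at 11.9 CPM (5.12 to 23.4) in 49 control cells and 19 CPM (14.4 to 24.7) in 194 Alk1 ECKO cells, and the ratio interval included no difference (log2 0.68, -0.39 to 1.96). Mural cells, which are pericytes and vascular smooth muscle, were at 6.93 CPM from 1 UMI in 11 control cells and at 6.67 CPM (3.81 to 10.8) in 149 Alk1 ECKO cells. In the control library 1 UMI was counted in 21 astrocytes. Neurons, progenitors and Müller glia as one group gave no Epor UMI in 4073 control cells, which allows at most 0.161 CPM, and 2 UMIs, both in rods, in 709 Alk1 ECKO cells (0.659 CPM, 0.0799 to 2.38). The order in the Alk1 ECKO library was therefore endothelial and microglial cells, whose intervals overlapped, then mural cells, then the neural classes. In control the microglial and endothelial intervals overlapped as well.

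Tfrc, which codes for the receptor that takes iron-loaded transferrin into cells, was lower in Alk1 ECKO endothelial cells. It had 1782 UMIs and 171 CPM (163 to 179) in control and 2806 UMIs and 75.1 CPM (72.3 to 77.9) in Alk1 ECKO, a log2 ratio of -1.18 (-1.27 to -1.10), or 0.44-fold. A UMI was present in 76.3% and 61.1% of cells, and in 27.2% (22.2 to 32.5) and 16.7% (14.5 to 19.1) after thinning. Microglia or macrophages, which had 0 and 1 Tfrc UMIs in all, had a UMI in none of their 49 and 194 thinned cells, at median depths of 13326 and 14131 UMIs before thinning. The thinned endothelial intervals lay apart, so the difference was seen in the share of cells as well.

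Among sub-clusters Tfrc had its highest control level in sub-cluster 4, at 259 CPM (244 to 275), and that sub-cluster held 146 of the 304 control but 34 of the 1131 Alk1 ECKO endothelial cells. Its Alk1 ECKO cells were at 170 CPM (140 to 205), a log2 ratio of -0.60 (-0.90 to -0.32). The cycling sub-clusters 0 and 6 were both at 119 CPM in control and at 64.4 and 54.6 CPM in Alk1 ECKO, log2 ratios of -0.88 (-1.05 to -0.72) and -1.13 (-1.48 to -0.77). Sub-cluster 8, led by Six3os1 and the water channel gene Aqp1, went the other way, from 75.4 CPM (53.6 to 103) in 22 control cells to 291 CPM (248 to 339) in 27 Alk1 ECKO cells, a log2 ratio of 1.95 (1.43 to 2.49). Sub-clusters 3 and 7 were also at higher values in Alk1 ECKO (93.8 against 68 CPM and 42.6 against 25.4 CPM), with overlapping intervals. Over the 5 sub-clusters that allowed it, and with both libraries given the same makeup of them, the log2 ratio of Tfrc was -0.45. That setting also leaves out the other sub-clusters, so the move cannot be put down to the makeup alone.

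Tfrc was also counted in the neural classes, at lower levels than in the endothelium. In control, rods were at 78.2 CPM (72.7 to 83.9), cones at 76.1 CPM (67.7 to 85.2), neurogenic precursors at 53.8 CPM, bipolar cells at 46.1 CPM, Müller glia or late progenitors at 44.5 CPM and amacrine cells at 43.1 CPM. Rods and cones did not differ beyond their intervals, nor did the last 4 among themselves. In Alk1 ECKO the values were lower in each of these classes, at 52.6, 43.5, 26.5, 40.4, 28.6 and 13.3 CPM in the same order. Those of cones and amacrine cells came from only 18 and 22 Alk1 ECKO cells, and no ratio was computed for these classes. The log2 ratio interval lay below 0 in rods (-0.57), in neurogenic precursors (-1.02, -1.94 to -0.21) and in Müller glia or late progenitors (-0.64, -1.31 to -0.03) and included 0 in bipolar cells (-0.19, -1.36 to 0.79). Lower values in classes that the endothelial Cre driver does not target thus stood beside the lower endothelial value, and their part in it was not tested.

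Trf, the gene of the iron carrier itself, was modestly higher in Alk1 ECKO endothelial cells. It had 1610 UMIs and 154 CPM (147 to 162) in control and 8400 UMIs and 225 CPM (220 to 230) in Alk1 ECKO, a log2 ratio of 0.54 (0.47 to 0.62), or 1.46-fold, just inside 1.5-fold. After thinning, 26.5% (21.6 to 31.8) and 36.1% (33.2 to 39.1) of cells had a UMI, against 0.412% and 0.429% of rods. Values were higher in Alk1 ECKO in all 8 sub-clusters with cells of both libraries, though the ratio interval, computed for sub-clusters 0, 4, 6, 7 and 8, included 0 in 6 and 8. In sub-cluster 7 it went from 50.9 CPM (29.1 to 82.7) to 192 CPM (157 to 232), and in sub-cluster 4 from 194 to 297 CPM (log2 0.61, 0.38 to 0.84). The highest Alk1 ECKO values were in sub-clusters 1, 3 and 4, at 345, 308 and 297 CPM. Sub-cluster 5, with Alk1 ECKO cells only, had the lowest at 61.2 CPM (44.3 to 82.4).

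The endothelium was not the class with the highest Trf level. Control microglia or macrophages were at 763 CPM (699 to 832) and those of Alk1 ECKO at 788 CPM (756 to 821), with a UMI in 73.5% and 76.3% of thinned cells, and their log2 ratio was 0.05 (-0.09 to 0.19). Pigment epithelium of the control library, 12 cells, was at 689 CPM (501 to 925), an interval that overlaps the microglial ones. Astrocytes were at 67.8 and 53.7 CPM, mural cells at 13.9 and 13.3 CPM, Müller glia or late progenitors at 6.33 and 10.3 CPM and rods at 1.24 and 2.92 CPM. The 3 iron and receptor genes were thus spread over the classes in different ways: Tfrc in endothelium and neurons and nearly absent from microglia, Trf in microglia and endothelium and nearly absent from neurons, and Epor at low level in endothelium and microglia.

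**Figure D2:**
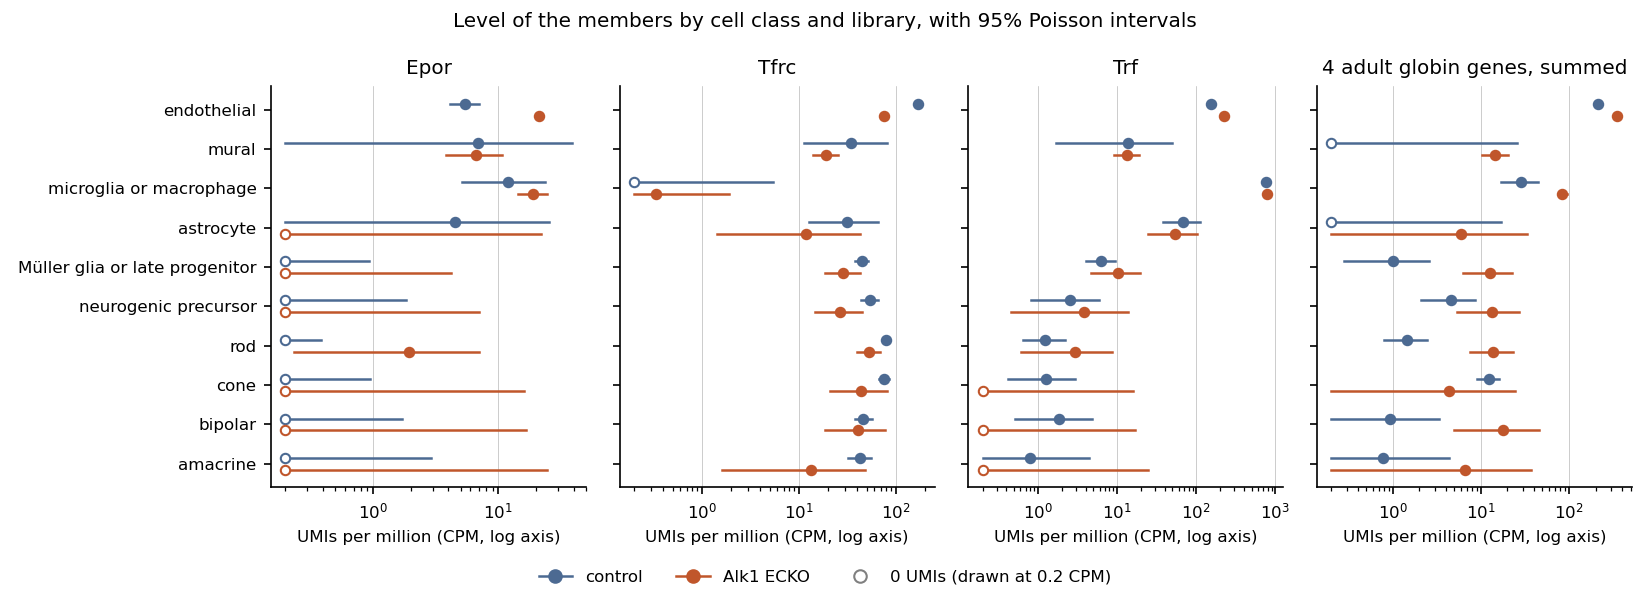
Level of the members in each cell class on a log axis of CPM, with points for the sum over the cells of a class in the control or Alk1 ECKO library and bars for 95% Poisson intervals. Tfrc is at 171 and 75.1 CPM in endothelial cells and at 0 and 0.34 CPM in microglia or macrophages, while Trf is at 154 and 225 CPM and at 763 and 788 CPM in the same classes.

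The adult globins gave higher sums in Alk1 ECKO endothelial cells, but a handful of barcodes held nearly all of them. The sum was 2237 UMIs and 214 CPM (205 to 223) in control and 13112 UMIs and 351 CPM (345 to 357) in Alk1 ECKO, a log2 ratio of 0.71 (0.65 to 0.78). By gene, the log2 ratio was 1.35 for Hba-a1 (25.4 and 64.5 CPM), 1.22 for Hba-a2 (20.5 and 47.6 CPM), 0.59 for Hbb-bs (131 and 197 CPM) and 0.16 (-0.00 to 0.32) for Hbb-bt (37.6 and 41.9 CPM). In control, 1 barcode held 2152 of the 2237 UMIs (96.2%). In Alk1 ECKO, 6 barcodes with 153 to 4758 globin UMIs each held 12943 of 13112 (98.7%), and 5 of the 6 lay in the cycling sub-clusters 0 and 6. Any globin UMI was seen in 6 of 304 control and 81 of 1131 Alk1 ECKO endothelial barcodes. The Poisson intervals of the sums therefore understate the spread between cells. Around the number expected from each barcode's depth, the variance of globin UMIs was 895 and 1351 times the Poisson value.

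The globin-rich endothelial barcodes stood apart in other measures too. Their median depth was 79450 UMIs in control (1 barcode) and 90634 in Alk1 ECKO, against class medians of 19770 and 18862. Their median doublet score was 0.118 and 0.0821, against 0.0645 and 0.0537. They held 4 of the 5 control and all 42 Alk1 ECKO endothelial UMIs of Alas2, the erythroid haem enzyme gene. Of the endothelial UMIs of 12 markers listed as restricted to red cell precursors, they held 6 of 10 and 10 of 37. These markers include the anion exchanger gene Slc4a1. Over all barcodes of each library, those without a globin UMI held 42 control and 30 Alk1 ECKO UMIs of the 12 markers. Removing doublets at a rate 2 times higher left 0 and 4 of the globin-rich endothelial barcodes. The part of doublets in the globin counts was not tested further. Epor did not follow the globin-rich barcodes: barcodes with under 5 globin UMIs had 5.41 CPM of Epor in control and 20.9 CPM in Alk1 ECKO. In these barcodes, which were 302 and 1120 of the endothelial cells, 6 and 83 globin UMIs remained, 0.58 CPM (0.213 to 1.26) and 2.28 CPM (1.81 to 2.82), and Alas2 had 1 and 0 UMIs. The log2 ratio of the globins was 1.97 in them, but it reversed to -0.84 when only the 1 control and 6 Alk1 ECKO barcodes with 100 or more globin UMIs were left out, a setting added after seeing the data that left 85 and 169 UMIs. Of these 85 UMIs, 79 lay in 1 control barcode of sub-cluster 4.

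**Figure D3:**
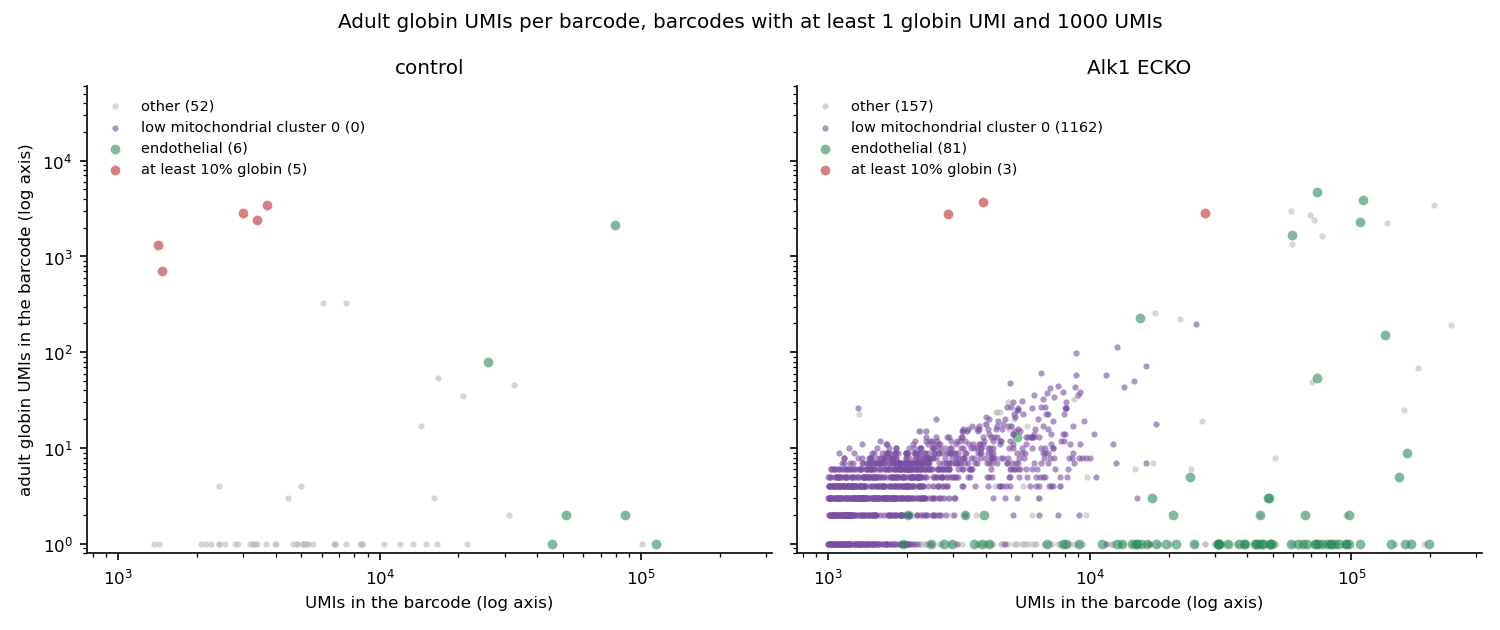
Adult globin UMIs against total UMIs per barcode on log axes for barcodes with at least 1 globin UMI and 1000 UMIs, in the control (left) and Alk1 ECKO (right) library. The control endothelial sum rests on 1 barcode with 2152 globin UMIs, and the Alk1 ECKO sum on 6 barcodes with 153 to 4758, while the set-aside Alk1 ECKO barcodes of cluster 0 form a band with quartiles of 3 and 7 globin UMIs.

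Adult globin UMIs were also counted in rods. After thinning to 2000 UMIs, 0.993% (0.205 to 2.88) of control and 1.82% (1.1 to 2.83) of Alk1 ECKO endothelial cells had an adult globin UMI, against 0.412% (0.178 to 0.809) and 2.15% (0.7 to 4.94) of rods. Within each library the endothelial and rod intervals overlapped, and no interval was computed for a ratio of shares. A difference between the classes at this depth was therefore not settled. The control endothelial share rests on 3 cells, and both endothelial shares include the globin-rich barcodes. Without thinning the shares were 1.97% and 7.16% in endothelial cells and 0.463% and 3.52% in rods, at the different depths given above. Globin levels of the neural classes were higher in the Alk1 ECKO library: rods were at 1.45 CPM (0.792 to 2.43) there in control but at 13.6 CPM (7.45 to 22.9) in Alk1 ECKO, and Müller glia or late progenitors at 1.01 CPM (0.276 to 2.59) and 12.6 CPM (6.28 to 22.5). Neurons, progenitors and Müller glia together had 78 control UMIs, 46 of them in 1 cone barcode, and 38 Alk1 ECKO UMIs with at most 2 per barcode. Microglia or macrophages were at 28.2 and 84.3 CPM, but 17 of 19 and 225 of 248 of those UMIs lay in 1 barcode of each library. Alas2 had no more than 1 UMI in any cell of the neural, mural and microglial classes, at 0 to 1.48 CPM.

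Barcodes dominated by globin held most of the globin of the control library. With at least 10% of UMIs from adult globins there were 7 control and 5 Alk1 ECKO barcodes, with 48.2% to 93.9% and 10.2% to 97.4% globin. The control ones had 811 to 3721 UMIs and 82 to 470 genes, none passed the cell filters, and they held 79.3% of all globin UMIs of their library. The Alk1 ECKO ones had 624 to 27640 UMIs and 23 to 5012 genes, 1 passed, and they held 20.7%. They contained 30 and 28 Alas2 UMIs and 0 UMIs of the 12 restricted red cell precursor markers in both libraries.

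Many Alk1 ECKO barcodes had a mitochondrial share below 1%, and most of these held globin. Among barcodes below 1% with globins under 10% of UMIs, 326 control barcodes held 0 globin UMIs, which allows at most 4.35 CPM, and 1473 Alk1 ECKO barcodes held 8084, 1780 CPM (1742 to 1820). The set-aside cluster 0 had 3 control and 1207 Alk1 ECKO barcodes, a median mitochondrial share of 0.405% and a median of 1845.5 UMIs. The Alk1 ECKO barcodes of cluster 0 held 7844 globin UMIs, 2484 CPM (2430 to 2540), and 96.3% of them had at least 1. Their counts were even, with quartiles of 3, 5 and 7 UMIs and a highest count of 196. The variance around the number expected from depth was 3.25 times the Poisson value. The level was 2597 CPM (2497 to 2700) in barcodes of 1000 to 2000 UMIs, 2512 CPM (2420 to 2607) from 2000 to 5000 and 2352 CPM (2261 to 2446) above. Without barcodes of 100 or more globin UMIs the last was 2137 CPM (2048 to 2228), so the level was lower in deeper barcodes. In the Alk1 ECKO endothelial class, by contrast, 6 barcodes carried the sum and most barcodes had none.

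The share of barcodes with a globin UMI changed sharply with the mitochondrial share in the Alk1 ECKO library. After thinning to 1000 UMIs it was 53.1%, 83.1% and 71% in barcodes with 0 to 0.25%, 0.25 to 0.5% and 0.5 to 1% mitochondrial UMIs. It was 7.97% from 1 to 2%, 1.64% from 2 to 4% and 1.42% from 4 to 10%. In control the lowest bin had 3 of 24 barcodes (12.5%, 2.66 to 32.4), and the others were between 0 and 0.456%. A low mitochondrial share alone did not go with globin: Alk1 ECKO barcodes below 1% that had clustered with a named class, 89 in all, held 2 globin UMIs (2.51 CPM, 0.303 to 9.05), and 141 Alk1 ECKO barcodes of cluster 19 held 6 (6.4 CPM, 2.35 to 13.9).

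**Figure D4:**
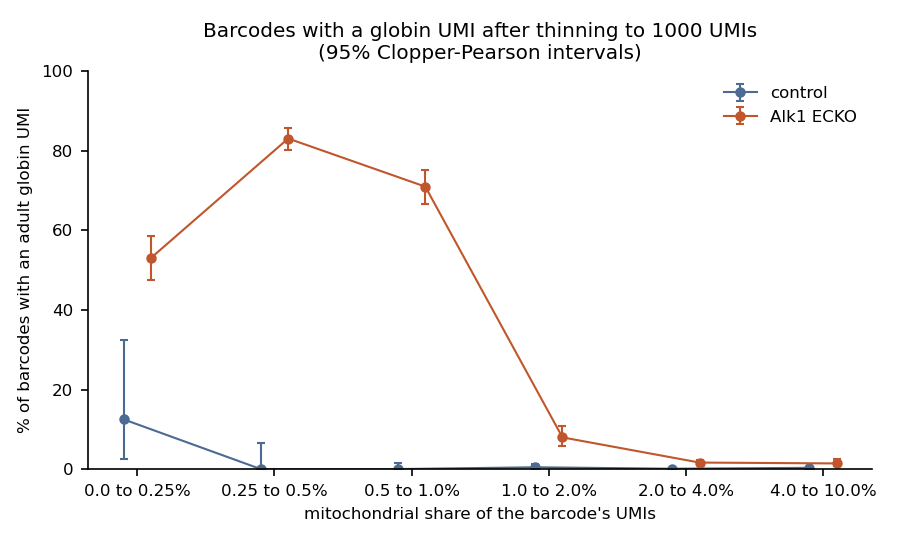
Percent of barcodes with at least 1 adult globin UMI after thinning to 1000 UMIs, in bins of the barcode's mitochondrial share, with 95% Clopper-Pearson intervals. The Alk1 ECKO values are 53.1% to 83.1% in the 3 bins below 1% and at most 7.97% above, and the control values are below 0.5% apart from 3 of 24 barcodes in the lowest bin.

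Cluster 0, summed over its barcodes, held RNA of several cell types. Its leading genes included the endothelial markers Plvap, Ramp2, Ly6c1 and Emcn, and the tight junction gene Cldn5 was at 1374 CPM against 2222 CPM in Alk1 ECKO endothelial cells. The microglial gene C1qb was at 1038 CPM against 3.13 CPM in those endothelial cells, and the rod gene Sag at 223 against 2.11 CPM. Malat1, an RNA retained in the nucleus, was at 840 CPM or 2.2 UMIs per barcode, against 8222 CPM and 272 UMIs in an Alk1 ECKO endothelial cell. C1qb, Sag, Cldn5 and Malat1 were chosen for this after their values had been seen. Of the 12 restricted red cell precursor markers 4 were detected in cluster 0, with 7 UMIs in all. The summed counts of these barcodes thus held endothelial, microglial, rod and globin transcripts, and free RNA and RNA held in damaged cells cannot be told apart from counts.

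The other members behaved differently from the globins in these barcodes. Over all Alk1 ECKO barcodes below 1% with little globin, set against Alk1 ECKO endothelial cells at 1% or more, 5 of the 8 members (the 4 globins and Alas2) were beyond 1.5-fold higher and 1 (Tfrc) was lower. Over 12466 genes measured in that contrast 16% were beyond 1.5-fold higher and 38.3% lower. Summed globins were at 1780 against 357 CPM (log2 2.32, 2.28 to 2.36) and Alas2 at 2.86 against 1.14 CPM (log2 1.32, 0.30 to 2.25), although Alas2 rested on 13 UMIs, at most 1 in a barcode. Epor was at 24.4 against 21.2 CPM (log2 0.20, -0.10 to 0.49) and Trf at 261 against 226 CPM (log2 0.21, 0.12 to 0.30). Tfrc was at 18.1 against 75.6 CPM (log2 -2.07, -2.40 to -1.75). After thinning to 2000 UMIs, 3.63% (2.2 to 5.62) of cluster 0 barcodes had an Epor UMI, within the interval of Alk1 ECKO endothelial cells given above. Epor and Trf transcripts therefore stood at about the endothelial level in barcodes poor in mitochondrial RNA, globins far above it and Tfrc below it. The endothelial reference Cdh5 was lower there, at 243 against 638 CPM (log2 -1.39, -1.48 to -1.30). Alk1 ECKO microglia or macrophages were at 788 CPM of Trf and 19 CPM of Epor. The part of microglial RNA in the levels of these mixed barcodes was not tested.

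Set-aside clusters with microglial markers and a median mitochondrial share below 1% also held globin. Cluster 22, whose leading genes included Hmox1, Aif1 and Tyrobp, had 3753 CPM of globins in 25 control and 1099 CPM in 90 Alk1 ECKO barcodes, but 329 of 418 and 255 of 314 UMIs lay in 1 barcode of each. Cluster 27, with 38 Alk1 ECKO barcodes and the microglial markers C1qa, C1qb and C1qc among its leading genes, had 2352 CPM (2091 to 2638) and a globin UMI in 92.1% of barcodes. Trf was at 377 and 476 CPM in cluster 22 and 442 CPM in cluster 27, below the 763 and 788 CPM of the named class of microglia or macrophages.

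The makeup of the globin UMIs was compared between groups of barcodes. Hbb-bs made up 56.8% (55.9 to 57.7) of globin UMIs in the control globin-dominated barcodes and 59.1% (58.2 to 60.1) in the Alk1 ECKO ones. It was 61.1% (59 to 63.2) and 56.1% (55.2 to 56.9) in the globin-rich endothelial barcodes of control and Alk1 ECKO. In cluster 0 it was 65.2% (64.2 to 66.3), above all of these, and the α genes together made up 28% (27 to 29) there against 36.6% (35.7 to 37.5) and 32.1% (31.2 to 33) in the globin-dominated barcodes. The α share was 20.7% (19 to 22.5) in the control globin-rich endothelial barcode, 31.9% (31.1 to 32.7) in the 6 Alk1 ECKO ones, and 55.3% and 51.9% in cluster 22 of control and Alk1 ECKO. In neurons, progenitors and Müller glia of Alk1 ECKO it was 23.7% (11.4 to 40.2) on 38 UMIs, too few to place. Single barcodes dominate several of these groups, the control endothelial group and cluster 22 among them, so the intervals understate the spread, and the source of the globin UMIs was not tested.

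**Figure D5:**
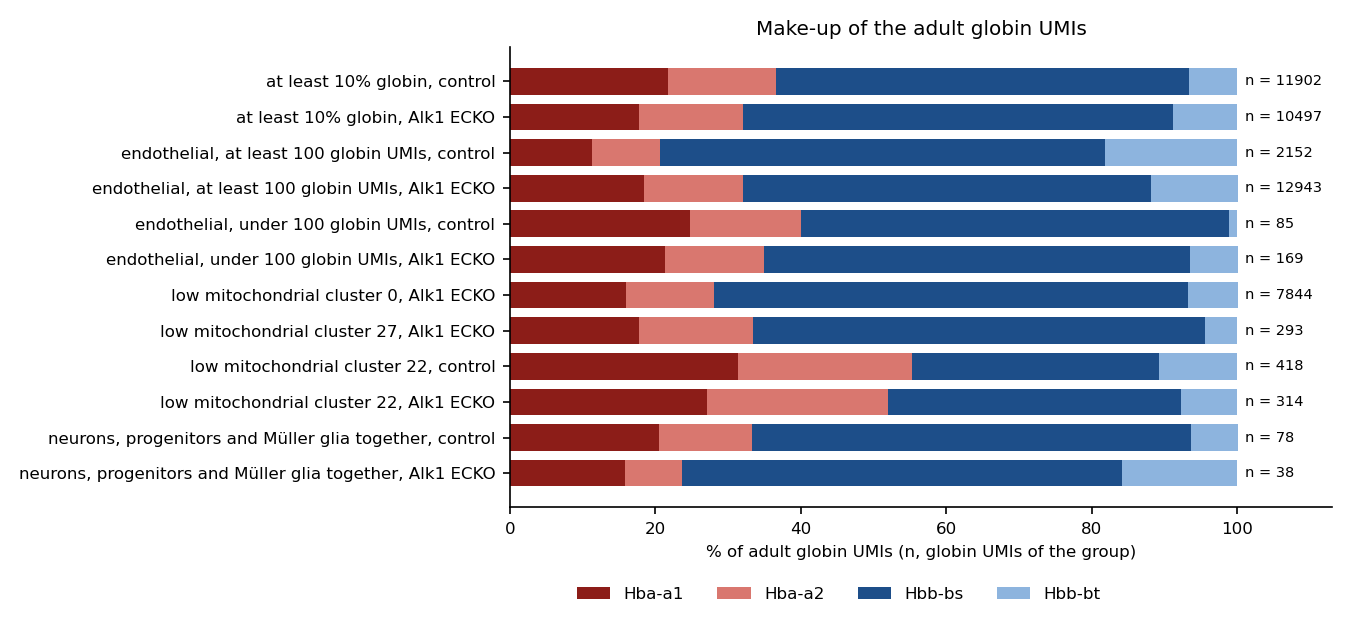
Makeup of the adult globin UMIs in groups of barcodes, as the percent of the summed UMIs that belong to each of the 4 genes, with the number of globin UMIs beside each bar. Hbb-bs makes up 65.2% in cluster 0 of Alk1 ECKO, 56.8% and 59.1% in the globin-dominated barcodes, and 34% and 40.4% in cluster 22.

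Over the endothelial comparison as a whole, 5 of the 8 members, all measured with at least 30 UMIs over both libraries, were beyond 1.5-fold higher in Alk1 ECKO (Epor, Alas2, Hba-a1, Hba-a2 and Hbb-bs) and 1 was lower (Tfrc). Of 12507 measured genes 6.01% were beyond 1.5-fold higher, 20.3% lower and 26.3% beyond it either way, and the members were chosen on such values, so nothing is read from the excess. The count of 6 was 3 at the same makeup of sub-clusters, and without the globin-rich barcodes Hba-a1, Hba-a2 and Hbb-bs reversed to -1.05, -1.01 and -0.84. The median log2 ratio of all measured genes was -0.21, and relative to it Epor was at 2.16, Trf at 0.75, Tfrc at -0.98 and the summed globins at 0.92. Alas2, with 5 and 42 UMIs, had a log2 ratio of 1.23 whose interval included 0 (-0.10 to 2.93).

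Genes of the surrounding pathways were taken from lists chosen with earlier results of these data known. Their counts beyond 1.5-fold stand beside 6.01% higher and 20.3% lower over all 12507 measured genes. Of 18 measured genes of iron uptake, storage, export and control, 1 was beyond 1.5-fold higher and 6 lower in Alk1 ECKO endothelial cells, with a median log2 ratio of -0.24 beside -0.21 over all genes. The lowest were Slc40a1, which encodes the iron exporter ferroportin (189 and 83.1 CPM, log2 -1.18, -1.27 to -1.10), the metal importer gene Slc39a8 (247 and 131 CPM, -0.91) and Ireb2, the gene of iron regulatory protein IRP2 (47.2 and 28.5 CPM, -0.73). The highest were the metalloreductase gene Steap4 (2 and 89 UMIs, log2 3.64, 1.74 to 6.71), the ferritin light chain gene Ftl1 (1345 and 1691 CPM, 0.33) and Hfe (22.7 and 28.3 CPM, 0.32). Tfrc and Slc40a1, the genes for uptake by transferrin receptor and for export, thus had the same log2 ratio of -1.18 in the sums over all endothelial cells. For Tfrc it was -0.45 at the same makeup of sub-clusters. The genes of these lists, Slc40a1 among them, were not examined by sub-cluster or at that makeup.

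Of 19 genes of haem synthesis and breakdown, all measured, 0 were beyond 1.5-fold higher and 3 lower, with a median of -0.03. The haem or haem-related transporter genes Flvcr2 and Abcg2 were lowest (21 and 10.5 CPM, and 493 and 304 CPM with a log2 ratio of -0.70), with the mitochondrial iron importer gene Slc25a37 (11.6 and 7.22 CPM, -0.68). At the upper end stood Hmox2 and Hmox1, which encode haem oxygenases (log2 0.31 and 0.29), and the biliverdin reductase gene Blvra (0.31). Of 15 measured genes of erythropoietin signalling 1 was higher and 2 lower, with a median of -0.11. Socs3, a feedback inhibitor of cytokine signalling, was at 18 and 38.8 CPM (log2 1.11, 0.89 to 1.34), Socs1 at 4.02 and 4.6 CPM (0.20) and the tyrosine kinase gene Lyn at 151 and 156 CPM (0.05). The receptor-bound kinase gene Jak2 was at 31.8 and 18 CPM (-0.82, -1.01 to -0.63), Cish at 8.42 and 5.54 CPM (-0.60) and Stat5b, a transcription factor gene of the pathway, at 14.5 and 9.85 CPM (-0.56).

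A list named endothelial partners of α-globin held 4 genes, and whether each is such a partner was not tested. Nos3 was at 78.6 and 70.1 CPM (log2 -0.16) and the cytochrome b5 reductase gene Cyb5r3 at 236 and 343 CPM (0.54). The guanylate cyclase genes Gucy1a1 and Gucy1b1 were at 3.54 and 2.33 CPM (-0.61) and 4.11 and 3.21 CPM (-0.36). The only other globin gene measured of 9 was Cygb, cytoglobin, at 2.58 and 1.39 CPM (-0.89, -1.59 to -0.17). Of 28 erythroid markers in the files 13 were measured, 2 were higher and 2 lower, and the summed level was 658 and 689 CPM. The highest were Tspan33 (9 and 192 UMIs, log2 2.58), Ube2l6 (0.84) and Mkrn1 (0.36), and among the lowest were the carbonic anhydrase gene Car2 (-0.98) and Slc25a37 (-0.68). The 12 restricted markers had 10 UMIs from 5 genes in control and 37 UMIs from 6 genes in Alk1 ECKO endothelial cells, 0.957 and 0.99 CPM. Of 4 measured platelet markers Clec1b (log2 1.19) and Itgb3 (0.88) were higher, Pf4 (-0.64) was lower and Itga2b was at -0.21, and the 9 markers summed to 23.2 and 21.7 CPM.

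The genes whose levels were most like each member over 17 profiles of a class in a library were found among 11417 genes by Pearson correlation, as a description over profiles that share libraries and depth. For Epor they were Psmb9 (0.957), Tap1 (0.943), Nfkbia (0.942), Icam1 (0.938) and Lyn (0.933). Over 13 sub-cluster profiles of the endothelium they were Cdkn1a (0.945), Ctdspl (0.939), Anxa6 (0.938), Ndfip1 (0.935) and Rab2a (0.920). Trf was nearest to Psmb9 (0.985), Tmem63a (0.976), Nfatc1 (0.976), Ctsh (0.975) and Anxa4 (0.975), and Tfrc to Epn2 (0.900), Synj2bp (0.883), Eif3d (0.873), Limch1 (0.865) and Ktn1 (0.863). The globins were nearest to Arhgap27 (0.926), Fam167b (0.925), Cd34 (0.922), Vamp5 (0.921) and Gbp3 (0.913), though 1 and 6 barcodes carried 96.2% and 98.7% of the endothelial globin UMIs behind these values. For Alas2, at 0 UMIs in many profiles, the nearest were Spsb1 (0.820), Git2 (0.773), Slc16a6 (0.771), Paqr7 (0.768) and Slc46a3 (0.761).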

How the data were processed

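The deposited matrices hold raw UMI counts, 1 value for a gene in a barcode. Per the file headers they were made with Cell Ranger 5.0.1. The submitters' processing notes name another version, Cell Ranger 6.1.1, along with FastQC 0.11.9 and the mouse build mm10. No source used here gives the selection of barcodes, the counting of intronic reads or the handling of strand and multi-mapped reads.

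Cells needed at least 1000 UMIs, at least 500 genes and a mitochondrial share of no more than 10%, which 7909 control and 4237 Alk1 ECKO barcodes met. Doublets were scored per library with Scrublet in scanpy 1.11.5. Its automatic threshold called 0 and 1 cells and so did not work, and the highest scores were removed instead at 0.8% per 1000 cells, 500 and 144 cells. The libraries were clustered jointly, uncorrected for batch, on 3000 variable genes, without mitochondrial, ribosomal, haemoglobin, sex-linked and member genes, with 30 components, 15 neighbours (scikit-learn 1.9.0) and the Leiden algorithm (leidenalg 0.10.2) at resolution 1.0. Names required at least 3 fixed markers among a cluster's top 20 genes. Clusters with a median mitochondrial share below 1%, a median doublet score above 0.1 or 2 or more foreign markers in the top 10 were set aside (187 and 1489 cells), and 2752 and 403 cells had no name. Endothelial cells were sub-clustered at resolution 0.6.

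UMIs were summed per class and library and given as CPM, counts per 1000000 gene UMIs of that class. Intervals are of the exact Poisson kind for sums, conditional binomial for ratios and Clopper-Pearson for shares (scipy 1.17.1), at 95%. Only the ratio interval and the 1.5-fold call were tried on simulated data. The simulated counts were Poisson draws without the spread between barcodes seen for globins, so they do not check the intervals for such counts. A gene was measured with at least 30 UMIs over both groups compared. No test was made, since each genotype had 1 library. The members, lists and rules were chosen with earlier results of these data known. Besides the members, the named genes are the 3 highest and 3 lowest of each list (all where fewer than 5 were measured), the 5 highest by CPM in low mitochondrial barcodes, the 5 most like a member by Pearson correlation of log2(CPM + 5), and Cdh5, Hspa1a and Actb as references. A few genes of this rule are not reported here. Acvrl1, Apex2, Cldn5, C1qb, Sag, Malat1 and genes that lead clusters are not covered by this rule and were picked with their values in view. Alternatives were another averaging, thinning to 5000 UMIs, stricter filters, a doublet rate 2 times higher, other totals, a fixed makeup of sub-clusters, left-out sub-clusters, subtracted rod UMIs and another resolution.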

Additional observations from a re-analysis of the deposited data

Results flagged for a closer look

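Some members moved in opposite directions in different endothelial sub-clusters, and the differences between sub-clusters were not tested. The log2 ratio of Alk1 ECKO over control of Tfrc was 1.95 in sub-cluster 8 but -0.88, -0.60 and -1.13 in sub-clusters 0, 4 and 6. For Hba-a1 it was 7.89 in sub-cluster 6 and -8.05 in sub-cluster 8, and for Hbb-bs 9.53, 9.75 and -10.48 in sub-clusters 0, 6 and 8. The summed adult globins gave 9.23 in sub-cluster 0, 9.59 in sub-cluster 6, -3.63 in sub-cluster 4 and -10.19 in sub-cluster 8. The globin values rest on single barcodes: 1 control barcode with 2152 globin UMIs in sub-cluster 8, 1 with 79 in sub-cluster 4, and 5 Alk1 ECKO barcodes in sub-clusters 0 and 6.

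Cells of clusters without a name, which entered no class, held members in the Alk1 ECKO library above the control level. Hba-a1 was at 43.0 CPM, Hba-a2 at 31.9 CPM, Hbb-bs at 269 CPM and Hbb-bt at 43.9 CPM. Epor was at 14.8 CPM against 0 in control and Trf at 190 CPM against 4.4. Nearly all of it lay in cluster 24, with 91 Alk1 ECKO cells and both endothelial and mural leading genes (Sparcl1, Cd93, Col4a1, Higd1b), which held 116 of 117 Epor, 1496 of 1500 Trf and 3051 of 3065 globin UMIs, 2705 of the globin UMIs in 1 barcode.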

How the results depend on the processing

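No paired analysis was possible because each genotype had 1 library. Epor kept its direction and stayed within its interval in 15 of 16 settings (range 1.26 to 2.16), and was 1.26 after thinning to 5000 UMIs, on 13 and 97 UMIs. Tfrc ranged from -1.36 to -0.45: -1.01 as the mean over cells, -0.98 relative to the median of all genes, -1.36 without cycling sub-clusters, -0.45 at the same makeup and -1.30 with low mitochondrial endothelial clusters counted. Trf ranged from 0.50 to 0.75, with 0.75 relative to the median and 0.62 without cycling sub-clusters. Summed globins ranged from -0.84 to 4.96: 0.64 as the mean over cells, 0.61 after thinning, 0.47 at 5% mitochondrial UMIs, 4.96 at a doublet rate 2 times higher, 0.92 relative to the median, 1.97 without cells of 5 or more globin UMIs, 0.15 at the same makeup, 1.24 with low mitochondrial clusters counted and, added after seeing the data, 0.79 with the unnamed cluster. They reversed to -0.84 without cycling sub-clusters and, in a setting added after seeing the data, to -0.84 without barcodes of 100 or more globin UMIs, where 85 and 169 UMIs remained. The latter also reversed Hba-a1 (-1.05), Hba-a2 (-1.01) and Hbb-bs (-0.84), and the former Hba-a2 (-0.18), Hbb-bs (-1.08) and Alas2 (-0.82): 5 of the 6 rich Alk1 ECKO barcodes cycle. The count of members beyond 1.5-fold was 6, with 3 at the same makeup. The thinned share with a globin UMI was 1.82% in Alk1 ECKO endothelial cells, 7.16% unthinned and 1.06% at 1000 UMIs, and in control rods 0.412% and 0.126%. The globin level in Alk1 ECKO barcodes below 1% mitochondrial share was 1780 CPM, 2133 below 0.5% and 1264 below 2%. Unless stated, the cause of these changes was not tested. Some settings left 0 UMIs of Alas2, Hba-a2 or Hbb-bt in a library and gave no ratio.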

Other observations

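In Alk1 ECKO barcodes below 1% mitochondrial share, set against Alk1 ECKO endothelial cells, the ferritin genes stood higher: Ftl1 at 8358 against 1679 CPM (log2 2.32, 2.30 to 2.33) and Fth1 at 6721 against 2286 CPM (1.56, 1.54 to 1.57). Over the 12466 genes measured in this contrast 16% were beyond 1.5-fold higher and 38.3% lower. Of 19 measured iron genes 3 were beyond 1.5-fold higher and 9 lower, with Pcbp1 at 297 against 300 CPM, Pcbp2 at 238 against 308 CPM and the exporter gene Slc40a1 at 53.3 against 83.7 CPM. Of 19 haem genes 5 were higher and 4 lower, led by the haem oxygenase gene Hmox1 at 1023 against 21.7 CPM (log2 5.56, 5.45 to 5.67). In microglia or macrophages Hmox1 was at 4478 (control) and 3881 CPM (Alk1 ECKO), a class whose gene C1qb was also in these barcodes, and the part of microglial RNA was not tested. Tmem14c was at 290 against 255 CPM, Abcg2 at 157 against 305 CPM, Hmox2 at 129 against 85.8 CPM and Blvrb at 128 against 50.5 CPM.

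Of 16 measured erythropoietin signalling genes 2 were higher and 10 lower in those barcodes, with a median log2 ratio of -0.64 beside -0.22 over all genes. Lyn was at 101 against 156 CPM, Socs3 at 76.9 against 39 CPM, Pim1 at 33.9 against 35.6 CPM, Bcl2l1 at 23.6 against 19.7 CPM and Sh2b3 at 22.5 against 33.9 CPM, while Epor itself was at the endothelial level. Of 13 erythroid markers 6 were higher and 0 lower, beside 16% higher and 38.3% lower over all genes measured there. The 5 with the highest level were Tmem14c, Bnip3l (200 against 222 CPM), Car2 (82.1 against 27.6 CPM), Bpgm (76.2 against 76.8 CPM) and Mkrn1 (39.2 against 20.5 CPM). The reference genes differed as well between the genotypes: the heat shock gene Hspa1a was at 33.5 and 1.42 CPM in endothelial cells of control and Alk1 ECKO, and the actin gene Actb at 5189 and 8535 CPM.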
